A study of Bos taurus with 4 samples.

Results

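Oxygen reaches the mitochondria of a muscle fibre through the blood capillaries and through myoglobin, the haem protein that binds oxygen inside the fibre and gives red muscle its colour. When oxygen is plentiful, prolyl hydroxylases of the EGLN family mark the alpha subunit of the hypoxia-inducible factor, HIF1A, for removal by the VHL ubiquitin ligase. When oxygen falls, HIF1A is spared and switches on genes that bring in blood vessels, glucose transport and glycolysis. VEGFA, the growth factor of blood vessels, ADM, the vasodilating peptide adrenomedullin, and EGLN3 itself are known targets of this factor.

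The expression of 7 genes of oxygen supply and hypoxia, MB (myoglobin), HIF1A, EGLN1, EGLN3, VEGFA, VHL and ADM, was followed in the semitendinosus muscle of Limousin (LIM) and Holstein-Friesian (HF) bulls. A gene was taken as measured when the RefSeq accession of an array probe was paired with its symbol in a RefSeq gene table, and its brightest probe was used. This held for 4 of the 7, MB, HIF1A, EGLN3 and VEGFA, out of 7788 symbols on the array, and EGLN1, VHL and ADM were not analysed here. Each of the 4 had 1 probe in 2 spots per array, and none of the 4 failed the filter on dim probes, each being detected in both channels of every array. The genes were chosen with earlier values of this same comparison known, MB against the hypoxia genes, so their ratios are given as a description with no test.

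The bulls were 15 months old, LIM being a beef breed and HF a dairy breed that served as the reference. The muscle was taken right after slaughter, and each of 4 arrays carried RNA of 1 LIM bull in the red dye Cy5 and of 1 HF bull in the green dye Cy3, so 4 bulls stand for each breed. Of 42990 spots, those well above background numbered 32513 to 33527 for LIM and 27102 to 28769 for HF, and the arrays' number limits the precision. No array carried the dyes the other way round, and so the breeds cannot be told apart from the dyes. Values are therefore named by channel label, LIM over HF, as log2 ratios after loess, a normalization that sets the typical ratio at each brightness to 0. Of 10 defining skeletal muscle markers 6 were measured, among them ACTA1 (skeletal actin) and CKM (muscle creatine kinase), and all 6 were detected in both channels of every array. In whole muscle, fewer cells of a type and less RNA per cell cannot be told apart.

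MB stood near the top of all genes measured, while HIF1A, EGLN3 and VEGFA had mean ratios below 0. The direction follows the dye labels. It is the opposite of the direction that the study gives, for HIF1A and equally for every other gene in the study's tables of directions that was measured here, CFD, COL3A1, CTSD, DDIT4 and MYC among them. The breed labels of the channels or the sense of the study's ratio may thus be exchanged, which the array files alone do not settle. The study reported its direction also by quantitative PCR for chosen genes and by western blot for myostatin, which do not use the array dyes. With exchanged channel labels, every sign below would turn. The contrast between MB and the hypoxia genes would keep its size, with MB on the HF side and the others on the LIM side. The mean log2 ratio was 1.02 ± 0.15 (moderated SE, n = 4) for MB, -0.54 ± 0.15 for HIF1A, -0.50 ± 0.06 for EGLN3 and -0.25 ± 0.18 for VEGFA. As folds, the level after loess in the channel labelled LIM was 2.03-fold higher for MB, 1.45-fold lower for HIF1A, 1.41-fold lower for EGLN3 and 1.19-fold lower for VEGFA. Among 6376 genes kept, 99.5% had a ratio below that of MB, against 4.89% for HIF1A, 5.83% for EGLN3 and 16.8% for VEGFA. With the sign turned these shares were 0.455% for MB, 95.1% for HIF1A, 94.1% for EGLN3 and 83.2% for VEGFA. Of the 4 genes, MB and EGLN3 had an adjusted p under 0.05 in limma, a threshold that 5.93% of all genes kept and 5.47% of all probes kept passed. Nothing is read from that count, since the genes were picked on this comparison. With any one array left out, neither MB nor EGLN3 reached that threshold.

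**Figure D1:**
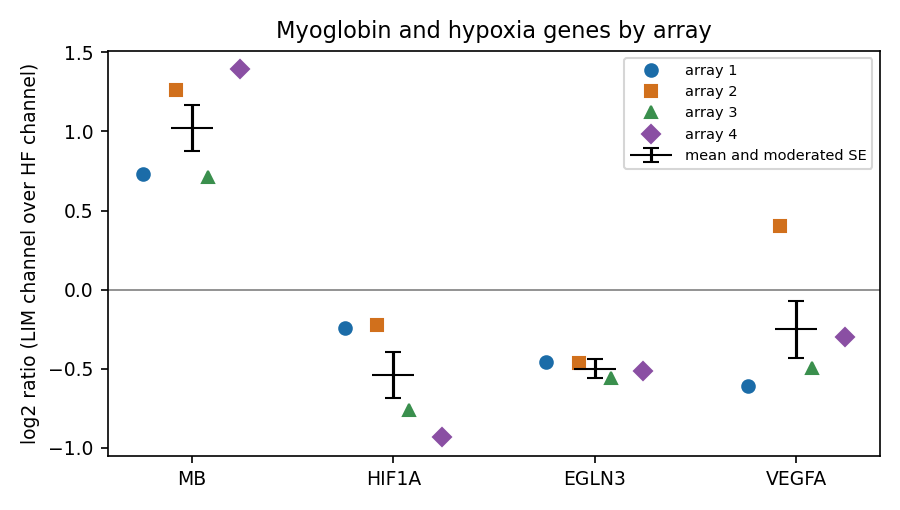
Log2 ratio of LIM over HF by channel label (vertical axis) for MB, HIF1A, EGLN3 and VEGFA. Symbols are the 4 arrays, and black bars show each mean and moderated SE; MB lies above 0 on all 4 arrays, EGLN3 lies within a narrow band near -0.50, and VEGFA is above 0 on array 2 only.

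MB, HIF1A and EGLN3 each kept 1 sign on all 4 arrays, as did 36.2% of all genes kept. Array by array, the log2 ratio of MB was 0.73, 1.26, 0.71 and 1.39 on arrays 1 to 4. MB was thus above 0 on all 4 arrays, as were 18.7% of all genes kept, with arrays 2 and 4 well above arrays 1 and 3. The SD between arrays was 0.36, against 0.048 between the duplicate spots of the MB probe. On the log2 scale, the normalized level of the MB probe ran from 17.30 to 17.80 in the LIM channel and from 16.34 to 17.07 in the HF channel. The levels of the channels did not overlap, which held for 12.9% of all genes kept.

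Before normalization the MB probe was among the brightest on the array, with 99.9% of the kept probes dimmer. Its signal over background was 306144, 368955, 375542 and 367747 scanner units in the LIM channel of arrays 1 to 4. In the HF channel it was 102587, 48269.8, 42434 and 50259.5. The LIM channel was similar on all 4 arrays, and the HF channel of array 1 was the bright one. No spot was saturated on any array.

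HIF1A, the oxygen-regulated subunit of the hypoxia factor, had log2 ratios of -0.24, -0.22, -0.76 and -0.93. All 4 were below 0, as for 17.5% of all genes kept, and arrays 3 and 4 lay well below arrays 1 and 2. Its normalized log2 level was at most 8.55 in the LIM channel and 8.57 to 9.19 in the HF channel, so that the channels did not overlap, by a narrow margin. The unnormalized signal of HIF1A was 388 to 435.25 units in the LIM channel and 194 to 319.25 in the HF channel, the highest HF value being that of array 4.

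EGLN3, the prolyl hydroxylase that is itself a target of the factor it restrains, had the steadiest ratio of the 4 genes, at -0.46, -0.46, -0.56 and -0.51. The SD between arrays was 0.049, less than the 0.091 found between the duplicate spots of its probe. The levels themselves varied more than the ratio. The normalized log2 level ran from 6.70 to 7.34 in the LIM channel and from 7.25 to 7.79 in the HF channel, and these ranges overlapped. EGLN3 was also the dimmest of the 4 probes, with 88.5 to 113 units in the LIM channel and 50.75 to 94.75 in the HF channel, where 35.2% of the kept probes were dimmer. The offset of 50 units added before taking logs pulls such dim ratios towards 0, and with the scanner software's processed signals EGLN3 had -0.88.

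VEGFA did not keep one direction. Its log2 ratio was -0.61, 0.40, -0.50 and -0.30, with array 2 above 0 and the other arrays below. The SD between arrays, 0.45, was larger than the mean of -0.25, and without array 2 the mean was -0.47. The normalized log2 level was 6.92 to 7.52 in the LIM channel and 7.12 to 8.08 in the HF channel, and the ranges overlapped. On array 2 the HF channel held the lowest unnormalized VEGFA signal, 45.25 units, and the LIM channel the highest, 195.5 units.

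**Figure D2:**
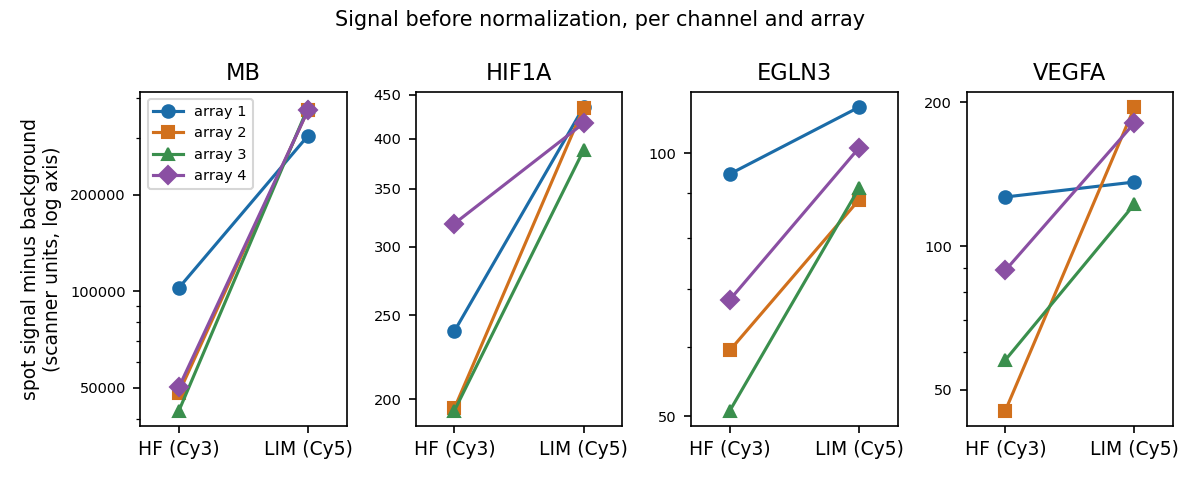
Spot signal minus local background in scanner units before any normalization (vertical axis, logarithmic, with its own range in each panel) for the HF and LIM channels of each array, joined by a line per array. All lines rise, as for 98.5% to 99.1% of the kept probes per array, and MB rises most, from 42434 to 102587 units in HF to 306144 to 375542 units in LIM.

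Set side by side on each array, MB exceeded the median of HIF1A, EGLN3 and VEGFA by 1.18, 1.49, 1.27 and 1.91 on the log2 scale (mean 1.46, SD 0.32). The median of the 3 hypoxia genes was -0.46, -0.22, -0.56 and -0.51 on arrays 1 to 4, while the median of all genes lay between -0.025 and 0.016. On array 4 MB had its highest ratio and HIF1A its lowest. On array 2, where MB was also high, HIF1A had its ratio nearest to 0 and VEGFA its only one above 0. The gap between MB and the hypoxia genes is what the genes were chosen for, and it carries no test.

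The size of these ratios depends on the loess step. Before it, all 4 genes were brighter in the channel labelled LIM on every array, with mean log2 ratios of 2.63 for MB, 0.77 for HIF1A, 0.47 for EGLN3 and 0.82 for VEGFA. For MB, loess subtracted 0.85, 1.67, 2.44 and 1.47 on arrays 1 to 4, a range wider than that of the resulting ratios. For the dimmer genes it took off 1.18 to 1.60 for HIF1A, 0.81 to 1.14 for EGLN3 and 0.93 to 1.17 for VEGFA. With each array centred on its median instead, MB had 1.76, HIF1A -0.098, EGLN3 -0.40 and VEGFA -0.053, with the median of the kept probes at 0.25. Relative to that shift the values were 1.51 for MB, -0.35 for HIF1A, -0.65 for EGLN3 and -0.31 for VEGFA, so each kept its side. Over 19 alternatives MB ranged from 0.90 to 1.76, HIF1A from -0.68 to -0.098, EGLN3 from -0.88 to -0.40 and VEGFA from -0.47 to -0.053.

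**Figure D3:**
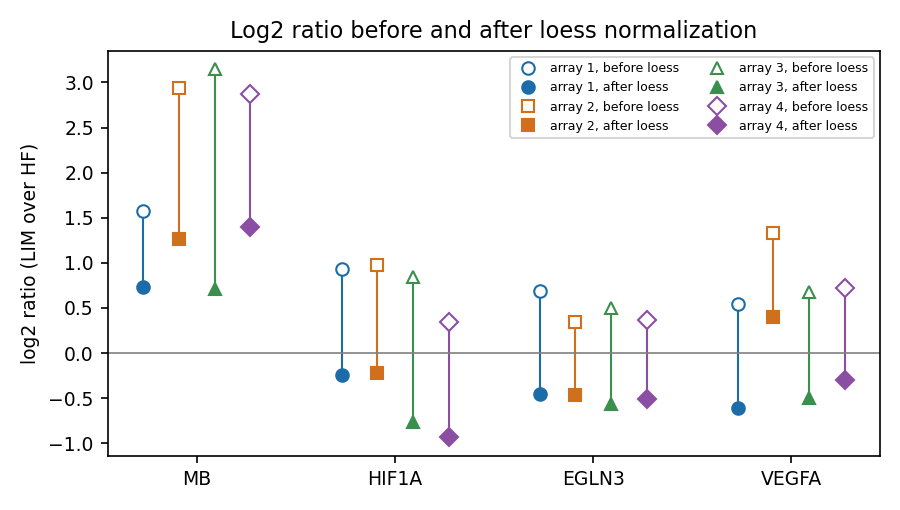
Log2 ratio of LIM over HF by channel label (vertical axis) before loess (open symbols) and after it (filled symbols) on each array. Every gene starts above 0, and the step is longest for MB on array 3, where it takes 2.44 off.

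Beyond the measured genes of the set, the few other parts of the oxygen-sensing machinery that were kept had ratios near 0 after loess. EPAS1, ARNT, EGLN2, HIF1AN and ELOB were not analysed here. Of 9 further genes listed, 4 were kept and 0 passed the test in limma (2 at an unadjusted p under 0.05, a level that 28.9% of all genes kept reached). Their ratios lay between -0.0097 for HIF3A, a further alpha subunit, and 0.19 for RBX1. RBX1, the ring protein of the VHL ligase, had 0.26, 0.072, 0.11 and 0.32 on arrays 1 to 4 (adjusted p = 0.168). CUL2, the scaffold of that ligase, had 0.16 ± 0.06 and ELOC, its elongin subunit, 0.037 ± 0.130. The list median was 0.096, beside 0.0029 over all genes kept. With median centring it was 0.65, beside 0.25 over the kept probes, and 3 of the 4 were called higher. That setting called 3525 of the 15856 probes kept higher.

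Among targets of the factor in glucose use, 12 further genes were kept, of which SLC2A1 fell and the other 11 did not pass, although 10 of the 12 had an unadjusted p under 0.05. SLC2A1, the glucose transporter of basal uptake, had log2 ratios of -1.08, -0.41, -1.22 and -0.99 (mean -0.93 ± 0.15, adjusted p = 0.0378 in limma). The other ratios lay on both sides of 0. PGK1, a glycolytic kinase, had 1.27 ± 0.24 (adjusted p = 0.0505), ALDOA, the muscle aldolase, 0.79 ± 0.18 and LDHA, the lactate dehydrogenase of fast muscle, 0.66 ± 0.16, while PFKFB3, which makes an activator of glycolysis, had -1.28 ± 0.33 and HK1, a hexokinase, -0.66 ± 0.23. The median was -0.23, and 0.23 with median centring, where 5 genes were called higher and 1 lower. Of the 15856 probes kept, that setting called 3525 higher and 275 lower, with a median of 0.25.

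Of 17 other targets kept, DDIT4 fell and 16 did not pass (6 of the 17 at an unadjusted p under 0.05). DDIT4, which restrains mTOR under stress, had -1.43, -2.61, -2.01 and -1.48 (mean -1.88 ± 0.21, adjusted p = 0.0239). Other genes of this list, named after their values were seen, had means on both sides of 0. BNIP3, a mitophagy receptor, had 0.060 ± 0.230 and ANKRD37 -0.26 ± 0.36. KDM3A, a histone demethylase, had 0.094 ± 0.070, and was well above background in the HF channel on 1 of 4 arrays. P4HA1, a collagen prolyl hydroxylase (-0.53 ± 0.11, adjusted p = 0.055 in limma), MXI1 (-0.35 ± 0.11) and ERO1A (-0.22 ± 0.07) were below 0 on all 4 arrays. With DDIT4 this made 4 genes, against 2 above 0 on all 4 arrays, VLDLR (0.83 ± 0.19) and P4HA2 (0.31 ± 0.09). Of all genes kept, 17.5% were below 0 on all 4 arrays and 18.7% above. The list median was 0.060, and with median centring 6 genes were called higher and 1 lower, beside 3525 and 275 of the 15856 probes kept. Over the sensing genes and both target lists together, 33 genes were kept, of which 2 fell, 0 rose and 31 did not pass, with a median of 0.037. Over all genes kept, 2.78% were called higher and 3.15% lower.

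**Figure D4:**
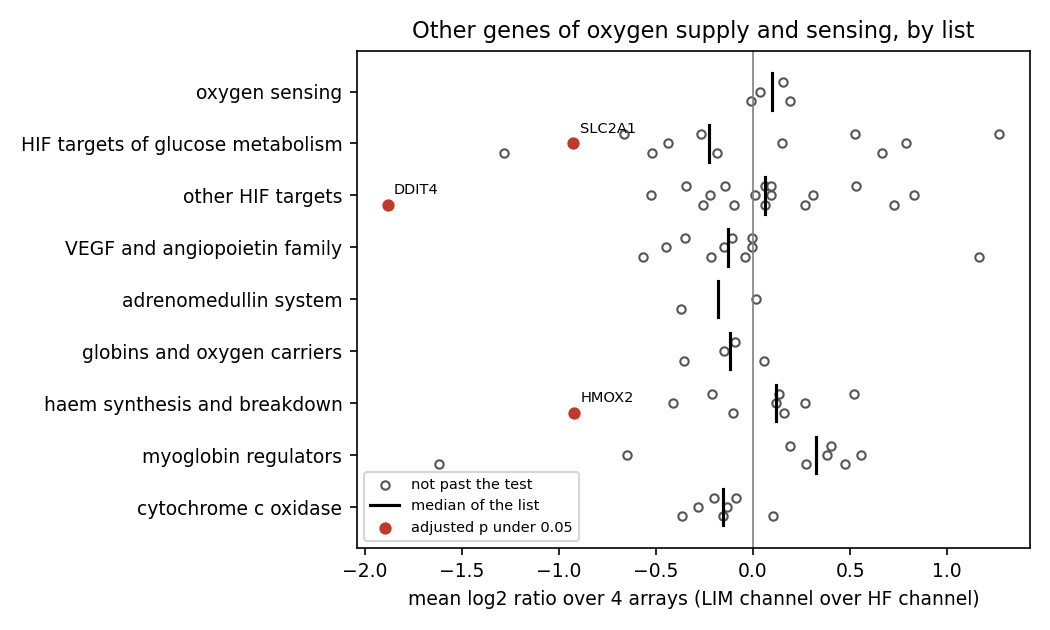
Mean log2 ratio over 4 arrays (horizontal axis) of the other genes in 9 lists of oxygen supply and sensing (vertical axis). Red points passed the test, open points did not, and black bars are list medians; the 3 red points, SLC2A1, DDIT4 and HMOX2, lie below 0.

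VEGFA was set beside the other vessel growth factors and their receptors, of which 10 were kept and 0 passed (1 at an unadjusted p under 0.05). VEGFC, a growth factor of lymph vessels, had -0.44, -0.29, -1.10 and -0.43 (mean -0.57 ± 0.15, adjusted p = 0.0887). KDR, the main VEGFA receptor, had -0.040 ± 0.234 and FLT1, a second receptor, -0.0044 ± 0.0755, the latter well above background in the HF channel on 1 of 4 arrays. ANGPTL4, a lipase inhibitor that responds to fasting and hypoxia, spread widely with 0.72, 1.87, -0.49 and 2.55. Of the adrenomedullin system the receptor CALCRL (0.014 ± 0.114) and its partner RAMP2 (-0.37 ± 0.19, and 0.16 with median centring) were kept, and neither passed.

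The endothelial markers shared the array pattern of VEGFA in part. The median of 6 kept endothelial markers was -0.15, 0.23, -0.75 and -0.34 on arrays 1 to 4, above 0 on array 2 only, the array where VEGFA was also above 0. The median of the VEGF and angiopoietin list, which shares TIE1 with these markers, was -0.22, 0.12, -0.44 and 0.022. None of the 6 endothelial markers passed in limma (0 at an unadjusted p under 0.05), and PECAM1, CDH5, VWF and EGFL7 were not analysed here. Their summed normalized signal was 1274 to 2978 in the LIM channel and 1883 to 2579 in the HF channel. The part of endothelial cells in the ratio of VEGFA was not tested.

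For MB the nearest comparison was the fibre types, since myoglobin is a protein of oxidative, mostly slow, fibres. Its ratio was above 0 while the slow-fibre markers lay below. Of 6 slow-fibre markers kept, MYL3, a slow myosin light chain, fell (-0.74 ± 0.12, adjusted p = 0.0422), and MYH7, the slow myosin heavy chain (-1.06 ± 0.32), ATP2A2, the slow calcium pump (-1.02 ± 0.24), TNNC1 (-1.12 ± 0.30), MYL2 (-0.88 ± 0.40) and TNNT1 (-0.87 ± 0.44) did not pass. The call of MYL3 was lost with, among others, median centring, scaling after loess, no filter on dim probes and any one array left out, and median centring moved the slow median from -0.95 to -0.26. The slow median was -2.03, -0.48, -0.97 and -0.20 on arrays 1 to 4. It was thus lowest on arrays 1 and 3, where MB was also lowest, and nearest to 0 on arrays 2 and 4, where MB was highest. This order of MB was that after loess. Before loess the log2 ratio of MB was 1.58, 2.93, 3.15 and 2.87 on arrays 1 to 4, highest on array 3. The summed signal of the slow markers was 191849 to 311153 in the LIM channel and 345590 to 888453 in the HF channel.

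The median of the fast-fibre markers ran the other way over the arrays, though not every marker did. PVALB, the calcium buffer of fast fibres (1.90 ± 0.33, adjusted p = 0.0445), and TNNC2, the fast troponin C (0.68 ± 0.12, adjusted p = 0.0453), rose and 6 of 8 did not pass. Both calls were lost without the filter on dim probes and without any one array, and that of TNNC2 also with scaling after loess or processed signals. The fast myosin heavy chains kept no single sign. MYH2 had -0.74, -0.057, -1.54 and 0.29 on arrays 1 to 4 (mean -0.51 ± 0.31), lowest on arrays 1 and 3 as MB was. MYH1 had 0.089, -0.25, -0.26 and 0.25 (mean -0.044 ± 0.111). The median of the 8 was 0.73, 0.21, 0.71 and 0.27 on arrays 1 to 4, highest where MB was lowest after loess. The summed signal of the fast markers was 845733 to 1283270 in the LIM channel and 664698 to 853651 in the HF channel. MB lay above both fibre lists on arrays 2 and 4 and level with the fast median on arrays 1 and 3. The part of the fibre types in the ratio of MB was not tested.

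**Figure D5:**
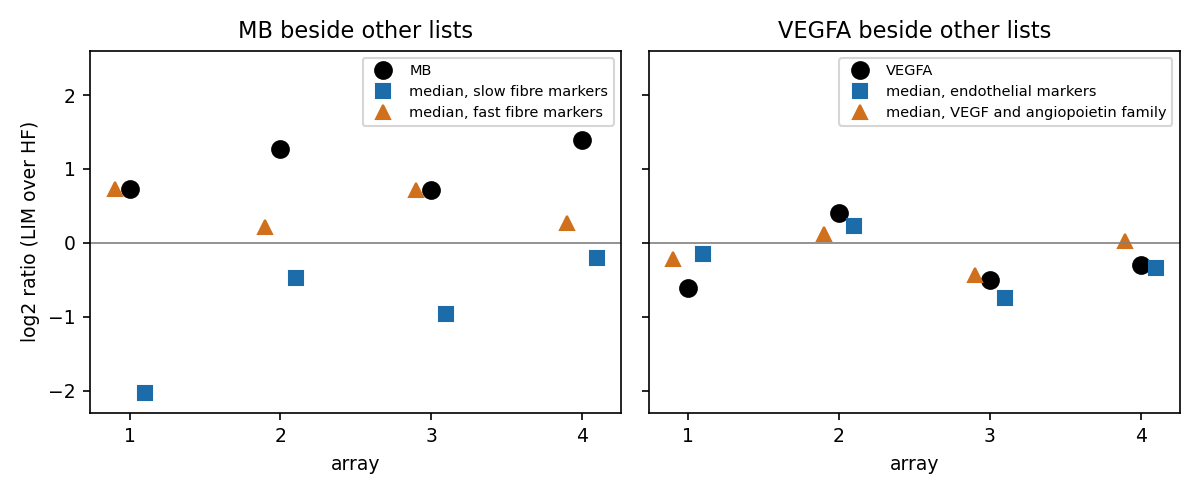
Log2 ratio of LIM over HF by channel label (vertical axis) by array, for MB with the medians of the slow-fibre and fast-fibre markers (left) and for VEGFA with the medians of the endothelial markers and of the VEGF and angiopoietin list (right). All values are after loess. MB is highest on arrays 2 and 4, where the slow median is nearest to 0, and VEGFA and the endothelial median are both above 0 on array 2 only.

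No other oxygen carrier that was kept passed the test (0 at an unadjusted p under 0.05). The red-cell globins HBA (-0.092 ± 0.145), HBB (-0.15 ± 0.17) and HBG (-0.35 ± 0.20) and NGB, the globin of neurons (0.055 ± 0.073), did not pass, with HBB well above background in the HF channel on 1 of 4 arrays. The 4 had a median of -0.12, and the globin genes share similar sequences, so their probes may not be specific. Of the erythrocyte markers, 3 were kept, HBA, HBB and AHSP, with a median of -0.092. AHSP had 0.19 ± 0.08 (adjusted p = 0.201 in limma) and was above 0 on all 4 arrays, as were 18.7% of all genes kept. The summed signal of the 3 was 5474 to 11977 in the LIM channel and 4221 to 15722 in the HF channel. ALAS2, SLC4A1 and EPB42 did not pass the filter on dim probes.

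In the making and breakdown of haem, which myoglobin needs, 9 genes were kept, of which 1 fell. HMOX2, the constitutive haem oxygenase that degrades haem, fell with -1.07, -0.99, -0.67 and -0.96 (mean -0.92 ± 0.09, adjusted p = 0.019), but did not pass with median centring (-0.30). The other 8 did not pass, among them ALAS1, the first enzyme of haem synthesis outside red cells (0.52 ± 0.23), and HMOX1, the inducible haem oxygenase, which ranged from -1.23 on array 3 to 1.27 on array 1. The list median was 0.12.

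Genes that control the transcription of MB through calcium and calcineurin had 8 kept members, and 0 passed in limma (5 at an unadjusted p under 0.05). RCAN1, a calcineurin inhibitor, had -2.47, -1.24, -0.69 and -2.08 (mean -1.62 ± 0.31, adjusted p = 0.0509). The calcineurin subunits PPP3CB (0.55 ± 0.12) and PPP3R1 (0.48 ± 0.14), the transcription factors NFATC1 (0.27 ± 0.08), NFATC3 (0.38 ± 0.16) and MEF2A (0.40 ± 0.15) were above 0 on all 4 arrays. The same held for 18.7% of all genes kept. PPP3CA, another calcineurin subunit, had 0.53, -0.14, 0.52 and -0.15 (mean 0.19 ± 0.16). PPARGC1A, the coactivator of mitochondrial genes, had -1.40, 0.0076, -1.27 and 0.064, near 0 on the arrays where MB was highest after loess. The list median was 0.33, and with median centring 6 of the 8 were called higher, a setting that called 3525 of the 15856 probes kept higher. Of 7 kept subunits of cytochrome c oxidase, the enzyme that consumes the oxygen, 0 passed (1 at an unadjusted p under 0.05) and the median was -0.15, with COX7A2 at -0.36 ± 0.10 (0.20 with median centring).

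The remaining lists were read beside these genes. Immediate-early genes, a first wave of transcription after a stimulus, had 10 kept members, of which 7 fell and 3 did not pass, with ATF3 at -4.26 ± 0.65, FOS at -3.47 ± 0.44 and MYC at -2.78 ± 0.24. Over all genes kept, 3.15% were called lower. Of the 10, 0 passed without array 1, 2 or 4 or with the methods' t-test after Benjamini-Hochberg, and 5 passed without array 3. The median of the immediate-early genes was -2.14, -1.66, -1.68 and -2.03 on arrays 1 to 4, and their part in the ratios of the hypoxia genes was not tested. Of 4 macrophage markers 0 passed (2 at an unadjusted p under 0.05, with CD14 at -0.49 ± 0.14). Their median of -0.55 ran from 0.13 on array 1 to -0.91 on arrays 3 and 4, the arrays where HIF1A was lowest, and their summed signal was 1439 to 3391 in the LIM channel and 2742 to 8341 in the HF channel. The part of macrophages in the ratio of HIF1A was not tested. Pericyte and smooth muscle markers had a median of -0.19 (RGS5 -0.23 ± 0.09), and 0 of 5 passed (1 at an unadjusted p under 0.05). Of 4 adipocyte markers CFD fell (-1.17 ± 0.20, adjusted p = 0.0442), while PLIN1 (0.26 ± 0.07), CIDEC (0.41 ± 0.36) and FABP4 (0.64 ± 0.63) did not pass, and the median was 0.34. Of 6 fibroblast markers COL3A1, the chain of type III collagen, rose (2.53 ± 0.44, adjusted p = 0.044) and 5 did not pass, with a median of 0.90 and with PDGFRA (-0.27 ± 0.19) and DCN (-0.23 ± 0.22) below 0.

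Genes with the most similar pattern were sought among 5431 genes detected above background in both channels of every array, by the root mean square difference in log2 ratio over the 4 arrays. The nearest to MB were KTN1, which encodes kinectin (difference 0.225, mean 0.93), VLDLR, a lipoprotein receptor that is also a hypoxia target (0.289, mean 0.83), and SAR1B, a GTPase of vesicle transport (0.295, mean 0.98). The nearest to HIF1A were TRAPPC6B (0.11), ACAA2 (0.128), a mitochondrial thiolase, and BTG3 (0.131). EGLN3 had much closer neighbours, the ribosomal protein gene RPL23A (0.0273), THEM4 (0.0322) and the lysosomal protease CTSD (0.05). The nearest to VEGFA were NDUFA3 (0.106), a subunit of respiratory complex I, TMEM88 (0.107) and SERTAD1 (0.131), each above 0 on array 2 only. With median centring the ratios of TRAPPC6B, ACAA2, RPL23A, CTSD, NDUFA3, TMEM88 and SERTAD1 turned to above 0, but the median of the kept probes was then 0.25. TRAPPC6B (0.081), ACAA2 (0.23), RPL23A (0.19) and CTSD (0.21) stayed below that median. NDUFA3 (0.46), TMEM88 (0.27) and SERTAD1 (0.33) lay above it.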

How the data were processed

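Total RNA of 4 LIM and 4 HF bulls had been hybridised to 4 two-colour Agilent bovine arrays on 1 slide. The authors quantified the spots with Feature Extraction 10.7.3.1, per the file headers. The deposited intensity values are median spot and background brightness, not normalized, and processed signals. The deposited log10 ratios are processed red over green, which the series value table repeated (largest difference 0, medians 0). Other deposited columns are flags of 0 or 1 for spots well above background. Background was corrected with limma's normexp (offset 50), loess (control spots weighted 0) normalized the ratios, and non-uniform spots (5 to 10 per array) were left out. Spots of a probe were averaged (21475 probes). A probe was kept when 1 channel was well above background on 3 or more arrays, which left 15856. A two-sided test of the mean ratio against 0 used limma 3.58.1 in R 4.3.3 (lmFit, eBayes, Benjamini-Hochberg over all probes kept), checked on simulated data. Names came from a RefSeq table of ARS-UCD2.0, which matched 8297 probes; the design refers to another build, so no coordinates are given.

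The members, 19 gene lists, alternatives and rules were chosen with earlier results of these data known. Named genes were the members, up to 3 genes per pathway list and 2 per marker list that changed most among those passing, otherwise the 1 of smallest p, and 3 nearest neighbours per member. Some listed items are not reported here and were left out of the list counts and medians. Further genes of the lists were named after their values were seen. Alternatives concerned background, offset, signal, normalization, filter, variance model, array weights, the methods' t-test, pairing of channels, the value table, probe averaging and left-out arrays. The bulls are biological replicates per the labels. The log2 ratios of the arrays correlated with r of 0.404 to 0.597 across probes, which are not independent replicates.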

Additional observations from a re-analysis of the deposited data

Results flagged for a closer look

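Over the 4 arrays, 38 genes were checked with Dixon's ratio for a single distant array, and 2 exceeded its critical value, against 1.9 that chance gives. COL3A1 (ratio 0.844) had 4.23 on array 3 against 1.75 to 2.14 on the others. HBG, a globin gene (ratio 0.872), had -1.10 on array 4 against -0.16 to -0.024 on the others. None of MB, HIF1A, EGLN3 and VEGFA exceeded it.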

How the results depend on the processing

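MB, HIF1A, EGLN3 and VEGFA kept their sign under all 19 alternatives. Several of these change only the test, the filter, the brightness scale or the averaging of probes. They could not move the ratio of a gene with 1 probe. The series value table repeats the processed signals, so it is no separate check. Without each array in turn MB ranged from 0.90 to 1.13 and the median of HIF1A, EGLN3 and VEGFA from -0.51 to -0.41. Median centring gave 1.76 for MB and -0.098 for that median, against 1.02 and -0.50, and processed signals and the series value table both gave -0.68 for the median. Median centring turned RAMP2 (0.16), COX7A2 (0.20), ERG (0.024), TCAP (0.48), TRAPPC6B (0.081), ACAA2 (0.23), RPL23A (0.19), CTSD (0.21), NDUFA3 (0.46), TMEM88 (0.27) and SERTAD1 (0.33) to above 0. The median of the kept probes was then 0.25, and of these genes only TCAP, NDUFA3, TMEM88 and SERTAD1 lay above it. Of 867 probes called, the probes called higher numbered 469 and the probes called lower 398. The count was 1336 with processed signals, 1339 with the series value table, 3800 with median centring (3525 higher, 275 lower), 1308 with an intensity trend and robust prior, and 1479 with the methods' t-test by the study's thresholds but 1 after Benjamini-Hochberg (3470 at an unadjusted p under 0.05). Without array 1, 2, 3 or 4 limma called 0, 0, 51 and 0 probes (3911, 3301, 3566 and 3184 at an unadjusted p under 0.05), so SLC2A1 and DDIT4 did not pass without any one array, and HMOX2 passed without array 3 only. SLC2A1 also did not pass without the filter on dim probes. The array is the pair of bulls, and with the channels fitted as separate samples with no replicate block 1096 probes were called. Causes were not tested. EGLN3 and VEGFA were the dimmest of the 4 genes, with 35.2% and 41.1% of the kept probes dimmer, and the offset shrinks the ratios of dim probes more.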
